A study of Homo sapiens with 24 samples.

Results

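The 45 genes described here encode subunits, activators, an inhibitor and assembly chaperones of the proteasome. They were chosen by name, among the genes with a symbol of the form PSM, a letter from A to G and a number, and they are 45 of the 16742 genes in the tables used here. All 45 had a row in each of 4 tables, which set an aneuploid human cell line beside the parental line it came from, with 3 libraries of each. The 24 libraries were made from total RNA. HCT116 is a colorectal carcinoma line, and RPE1 is a line of retinal pigment epithelial cells immortalized with hTERT. An asterisk marks the lines, aneuploid and parental alike, that carry histone H2B fused to GFP. HCT116 5/4 has 4 copies of chromosome 5 and was set beside parental HCT116, and HCT116* 8/3 c7, which is 1 clone, has 3 copies of chromosome 8 and was set beside parental HCT116*. RPE1 5/3 12/3 has 3 copies of chromosomes 5 and 12, the latter gained spontaneously, and was set beside parental RPE1, and RPE1* 21/3 has 3 copies of chromosome 21 and was set beside parental RPE1*. The sample labels give parental HCT116 and HCT116* a lower modal chromosome number than parental RPE1 and RPE1*. HCT116 5/4 was obtained from another laboratory, and the other aneuploid lines were made by transfer of a chromosome in microcells.

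The proteasome degrades proteins that carry ubiquitin chains. Its core particle is a barrel of alpha rings, which gate the entrance, and beta rings, which hold the proteolytic sites. The regulatory cap consists of a base, whose ATPases unfold the substrate, and a lid, which removes the ubiquitin chain. Cells that respond to interferon replace the catalytic beta subunits with alternative ones and make the PA28 activator, which together are known for their part in producing peptides for MHC class I. Dedicated chaperones assemble the core particle and the base and leave before or when the complex is finished.

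The deposited values used here are mean normalized counts per gene, taken over the aneuploid and the parental libraries of a table together. Each table is called here by its aneuploid line, but its value is a mean over both lines, so what follows compares tables and not an aneuploid line with its parent. Since each table was normalized separately, the means were divided by 1 factor per table, from 0.825 to 1.11, so that the median ratio over the 11939 genes whose mean reached 10 in all 4 tables was even. A value on this common scale is called a mean below. No spread between libraries could be given, the depth of single libraries is unknown, and 2 tables against 2 cannot go below an exact two-sided permutation p of 0.333, so the comparisons are descriptions with no test. The tables matched their labelled cell types in most of the markers with a row, with exceptions that included genes of pigment epithelium. The epithelial markers EPCAM, CDH1 and KRT19 had deposited means of 1685 to 19183 in both HCT116 tables and were under 10 or had no row in both RPE1 tables. The epithelial keratins KRT8 and KRT18 were higher in HCT116 but abundant in RPE1 too. KRT8 was at 63210 and 59668 in HCT116 and 19618 and 16721 in RPE1. KRT18 was at 28098 and 20665 in HCT116 and 12481 and 13422 in RPE1. LGALS4 was at 2.32 in HCT116* 8/3 c7 and had no row elsewhere. VIM and FN1 lay between 106 and 1210 in HCT116 and between 110087 and 373337 in RPE1. CDX2, an intestinal regulator, was at 337 and 392 in HCT116 and had no row in RPE1, and CDX1 and VIL1 had no row in any table. MITF, a regulator of pigment cells, was at 67.4 and 62.0 in HCT116 and at 1439 and 1124 in RPE1. Of the other genes of pigment epithelium, RPE65 was near 10 or lower in RPE1 and higher in HCT116, at 287 and 194, and PMEL was also higher in HCT116, at 97.1 and 137 against 17.8 and 14.8. RLBP1 and BEST1 were higher in RPE1 but did not exceed 42.7.

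The order of the proteasome genes was much the same in every table. The 45 means had a Spearman correlation between 0.867 and 0.981 in the 6 pairs of tables, which is a description, since the same transcript lengths enter every table. PSMD2, the large scaffold subunit of the base, had the highest mean in each table, with 8797 in HCT116 5/4, 9362 in HCT116* 8/3 c7, 12155 in RPE1 5/3 12/3 and 13070 in RPE1* 21/3. The other end was held by PSMB8 in HCT116 and by PSMG4 in RPE1. PSMB8, an alternative catalytic subunit, was the 1 member whose mean was under 10 in any table, so 44 of the 45 entered comparisons with HCT116. In RNA of a whole culture, fewer cells that express a gene and less of its RNA per cell cannot be told apart.

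**Figure D1:**
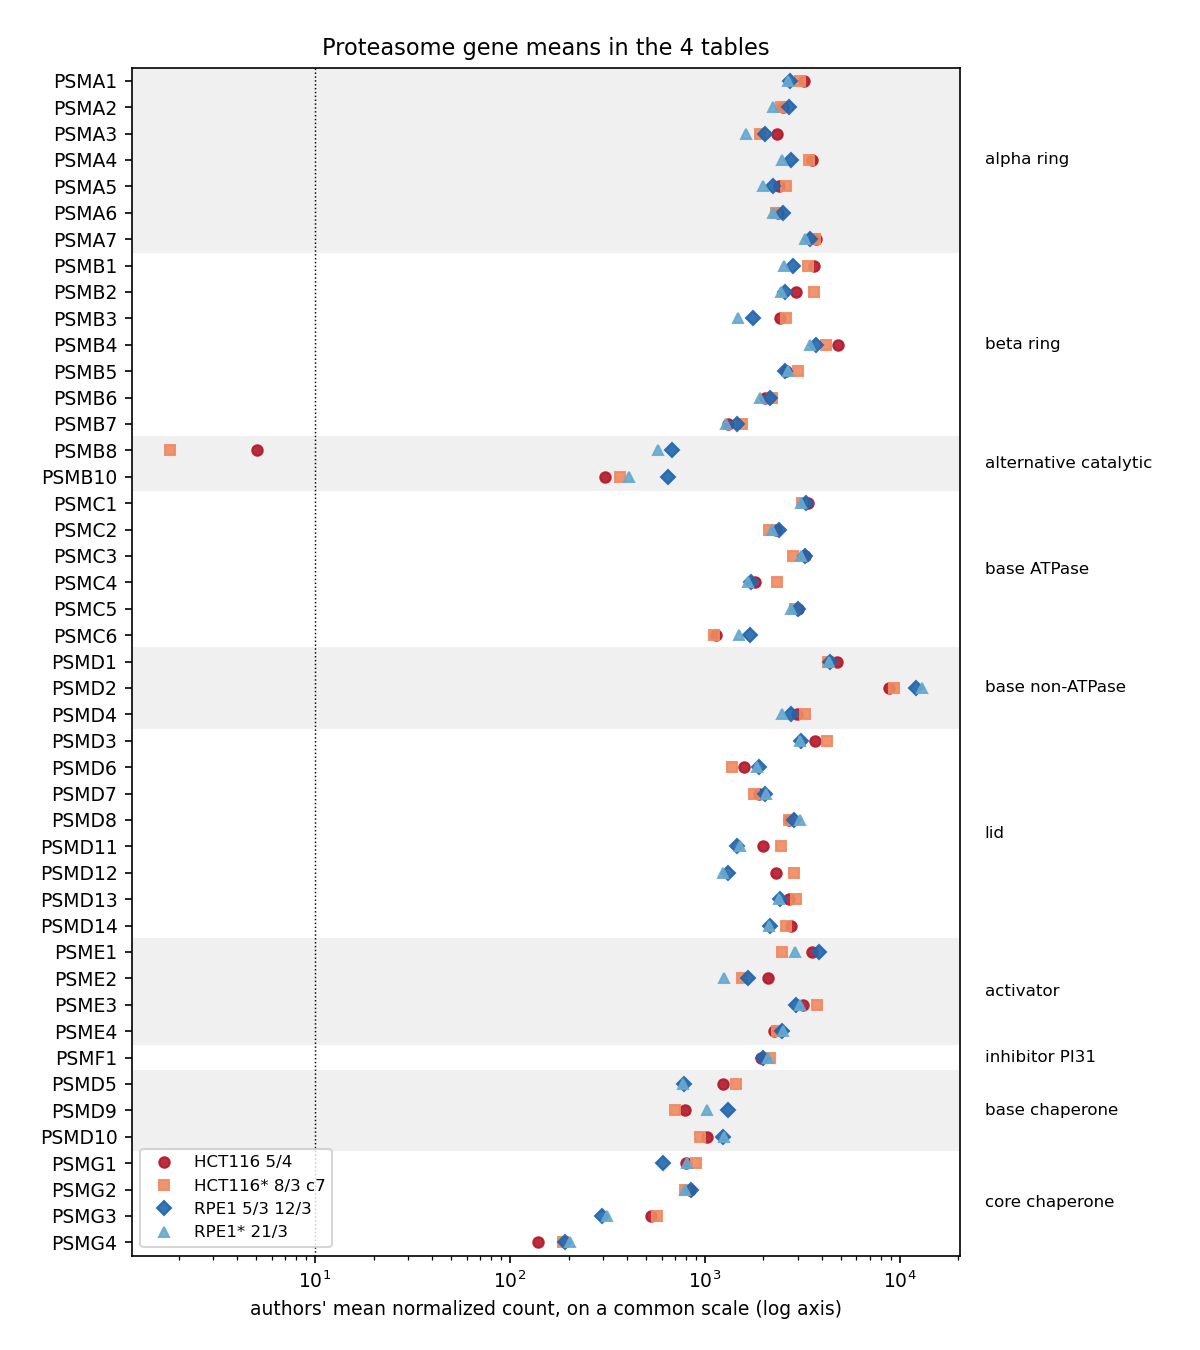
Mean normalized count of each of the 45 proteasome genes on a common scale (horizontal log axis), grouped by role, with 1 point per table and the dotted line at 10. Most genes have their 4 points close together above 1000, whereas PSMB8 lies at 680 and 578 in the RPE1 tables and at 5.04 and 1.80 in the HCT116 tables.

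Levels of different genes were compared per kilobase of exon. Each level was ranked among those genes of the same table whose mean reached 10, and exon length was taken in 3 ways from the annotation, as the union of all exons, the longest transcript and the canonical transcript. With the union, the median percentile of the 14 constitutive core particle genes was between 91.7 and 94.6 in the 4 tables, that of the 17 cap genes between 87.3 and 91.3, and that of the 7 assembly chaperones between 57.9 and 77.8. The same order of the 3 groups was obtained with the longest transcript, where the means of these medians over the tables were 94.8, 92.0 and 68.1, and with the canonical transcript, where they were 95.7, 92.3 and 70.8. The assembly chaperones stood lower than both under each length. The place of the core particle above the cap did not hold for its alpha ring under each length. The alpha ring medians were 79.7 to 88.7 with the union and 81.8 to 90.4 with the longest transcript, below the cap in every table. With the canonical transcript they were 93.2 to 96.5, above the cap in every table. The beta ring medians lay above the cap in every table under each length. PSMD2 ranked 1 or 2 of the 45 genes under each length and PSMA7, an alpha ring subunit, ranked 2 or 3. PSMG4 ranked 44 and PSMB8 ranked 45 under each, from the mean of the log2 levels over the 4 tables. The rank of PSMB8 comes from the HCT116 tables, where its mean was under 10, and in the RPE1 tables it stood at percentiles 65.3 and 59.8 with the exon union and 80.2 and 76.2 with the canonical transcript.

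**Figure D2:**
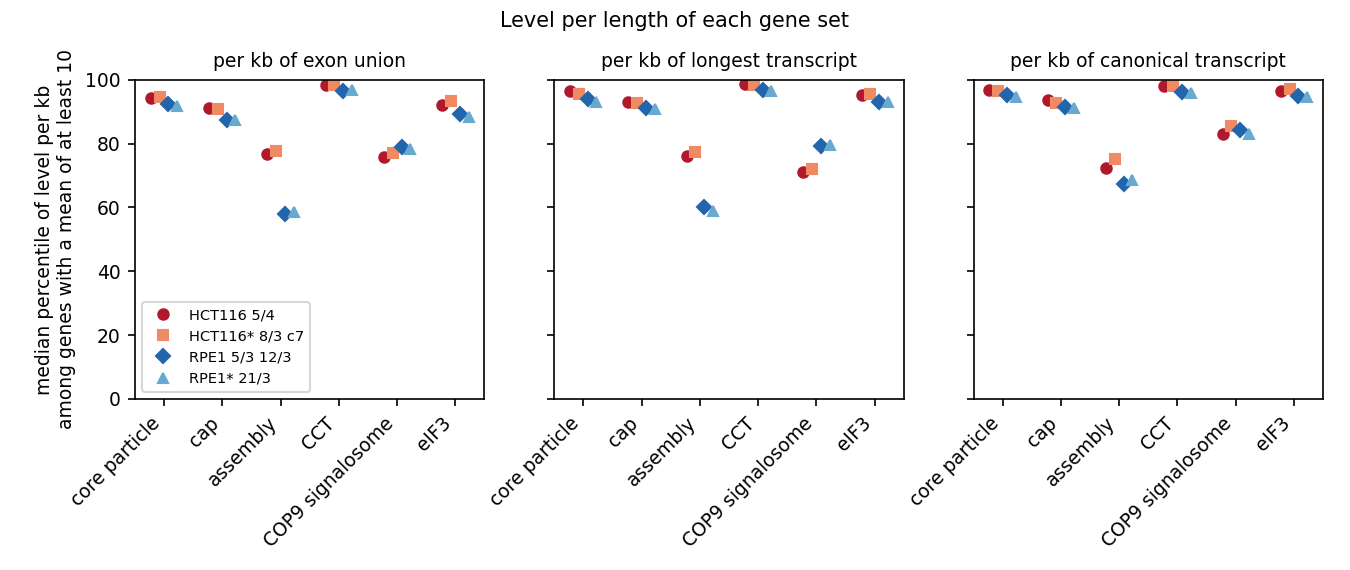
Median percentile of the level per kilobase (vertical axis) of the core particle, cap and assembly genes and of 3 other complexes, with 1 point per table, for 3 definitions of transcript length. The assembly chaperones lie below the core and the cap in every table and panel.

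Most proteasome genes had similar levels in the 2 cell types. A gene was counted as different when both HCT116 tables lay on the same side of both RPE1 tables by over 1.5-fold in all 4 pairings. Of the 44 genes, 3 were higher in HCT116 and 0 were lower, where 17.3% of all 11939 genes were higher and 18.9% lower. The median size of the log2 ratio was 0.25 over the members and 0.58 over all genes. Highly expressed genes differed less in general, and among the 3113 genes whose mean reached 1000 in all 4 tables the shares were 5.53% higher and 18.3% lower and the median size 0.41, beside 1 higher, 0 lower and 0.22 for the 37 members at that level.

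The means depend on how the tables are brought to a common scale. When each table was divided by its sum, the median log2 ratio of all genes moved to 0.35 in favour of HCT116, and with the means as deposited to 0.26. The number of members higher in HCT116 was then 8 and 3, and 0 were lower, beside 29.0% and 23.0% of all genes higher and 12.2% and 12.8% lower. Since a scale moves every gene by the same amount, the distance of a group from the median of all genes is fixed, at 0.22 for the core particle, 0.03 for the cap and -0.02 for the assembly genes.

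**Figure D3:**
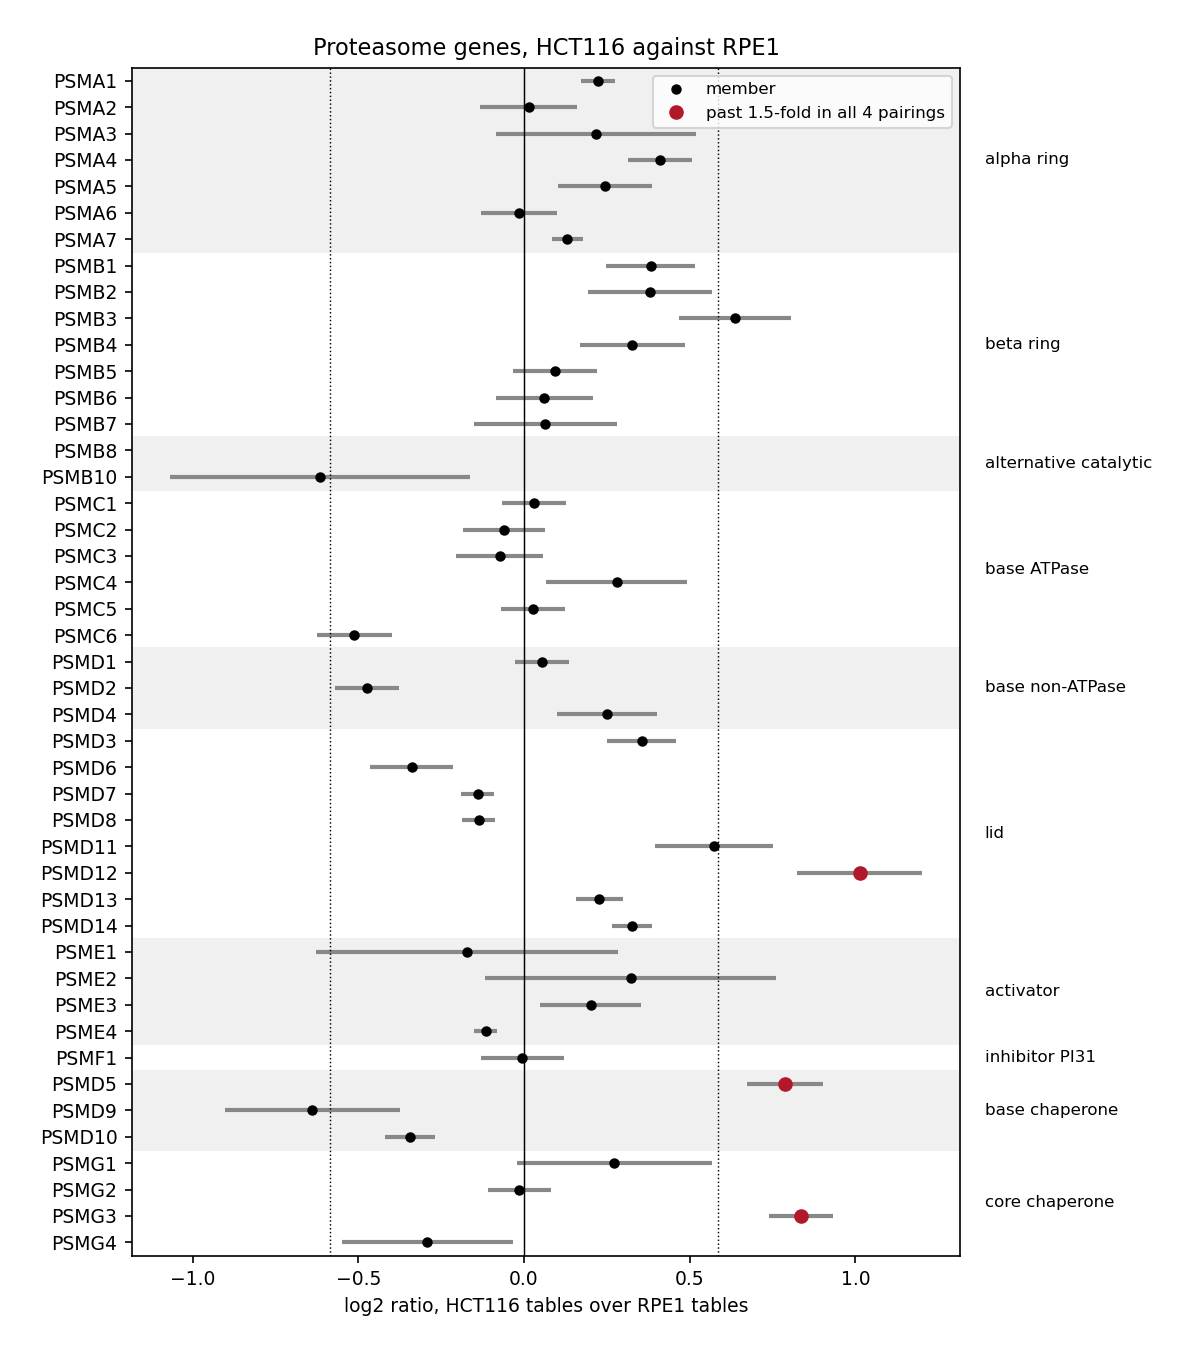
Log2 ratio of the HCT116 tables over the RPE1 tables (horizontal axis) for 44 proteasome genes grouped by role, where the point is the mean and the bar spans the 4 pairings of tables. Dotted lines mark 1.5-fold, and PSMD12, PSMD5 and PSMG3 in red lie past it in all pairings, at 1.01, 0.79 and 0.84.

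In the core particle the median log2 ratio was 0.22. Both HCT116 means lay above both RPE1 means for 8 of the 14 constitutive core genes and below for 0, where 39.6% of all genes lay above and 40% below, and no core gene passed 1.5-fold in all 4 pairings. When tables were divided by their sums 14 of the 14 lay above and 2 passed, where 6754 of all 11939 genes lay above and 29.0% passed as higher. With the means as deposited 11 lay above and 0 passed, where 5842 of all genes lay above and 23.0% passed as higher. The widest difference was that of PSMB3, a beta ring subunit without a proteolytic site, with a mean of 2445 in HCT116 5/4 and 2600 in HCT116* 8/3 c7, against 1769 in RPE1 5/3 12/3 and 1488 in RPE1* 21/3. Its log2 ratio was 0.64, with pairings from 0.47 to 0.80. PSMA4 of the alpha ring, with a log2 ratio of 0.41, and PSMB1, PSMB2 and PSMB4 of the beta ring, with 0.38, 0.38 and 0.33, came next. PSMA1 and PSMA5 had log2 ratios of 0.22 and 0.25. The 3 subunits that carry the proteolytic sites had log2 ratios of 0.09, 0.06 and 0.06, and the structural subunits PSMA2 and PSMA6 had 0.01 and -0.02. PSMB5, the chymotrypsin-like subunit, had means of 2609 in HCT116 5/4, 2995 in HCT116* 8/3 c7, 2569 in RPE1 5/3 12/3 and 2668 in RPE1* 21/3. Where 4 means are given from here on, they are in this order. PSMB6, the caspase-like subunit, had 2035, 2224, 2159 and 1925, and PSMB7, the trypsin-like subunit, had 1319, 1555, 1465 and 1280. For each of these 3 genes the means of the 2 cell types overlapped, which did not hold with tables divided by their sums. Among the alpha ring genes the ranges of PSMA2, PSMA3 and PSMA6 overlapped as well, and PSMA7 had means of 3718, 3665, 3460 and 3284. PSMA8, the testis form of PSMA7, had no row among those analysed here.

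Of the 45 genes, PSMB8 stood furthest apart between the cell types. This gene, which takes the place of PSMB5 and lies at chr6:32808494-32812456 on the minus strand (GRCh37), had means of 5.04 and 1.80 in the HCT116 tables and 680 and 578 in the RPE1 tables. The HCT116 values were under the minimum of 10, and no fold is given. Per kilobase of canonical transcript, PSMB8 was at 24.6% and 20.1% of PSMB5 in the RPE1 tables. No share is given for the HCT116 tables, where the mean of PSMB8 was under 10. With the exon union the RPE1 shares were 11.8% and 9.65%. PSMB10, which takes the place of PSMB7 and lies at chr16:67968409-67970767 on the minus strand, was present in both cell types, with means of 309, 366, 648 and 410. In the GENCODE annotation 39.4% of its exonic bases are shared with another coding gene on the same strand. Its lower RPE1 mean was near the higher HCT116 mean, and the log2 ratio of HCT116 over RPE1 was -0.62, with pairings from -1.07 to -0.16. Per kilobase of canonical transcript it stood at 23.6% and 23.7% of PSMB7 in HCT116 and at 44.6% and 32.3% in RPE1.

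PSME1 and PSME2 encode the alpha and beta subunits of PA28, the activator that opens the core particle without ATP. They are neighbours, at chr14:24605372-24608176 on the plus strand and chr14:24612571-24616779 on the minus strand (GRCh37). PSME1 had means of 3547, 2503, 3866 and 2915, and PSME2 had 2115, 1546, 1676 and 1250. Both genes had overlapping means in HCT116 and RPE1, and both were higher in the table without GFP than in the H2B-GFP table of the same cell type. The log2 ratio of HCT116 5/4 over HCT116* 8/3 c7 was 0.50 for PSME1 and 0.45 for PSME2, and that of RPE1 5/3 12/3 over RPE1* 21/3 was 0.41 and 0.42. Neither passed 1.5-fold, but with the means as deposited the ratios between the RPE1 tables were 0.70 and 0.72, both past it, where the median of all genes was 0.27. The gained chromosome, the GFP fusion and the parental line differ together between these tables and cannot be told apart. PSME3, the nuclear PA28 gamma, and PSME4, the activator PA200, did not share this pattern, with means of 3199, 3771, 2952 and 3091 for PSME3 and 2265, 2357, 2495 and 2514 for PSME4. PSMF1, the inhibitor PI31, had means of 1934, 2168, 1994 and 2117, with overlap between the cell types.

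The promoters of these genes are shown, with PSMB5 and the lid gene PSMD12 beside them. PSMB8 and PSMB10 were taken because both had lower means in HCT116, and PSME1 and PSME2 because they differed alike between tables. PSMB10 was not counted as lower. Its means in the cell types overlapped when tables were divided by their sums and with the means as deposited. Each sequence runs from 250 bases before the start to base 30 after it, from RefSeq on GRCh38.p14. Capitals mark matches, on either strand, to 3 motifs, which are GAAANNGAA, the core of the interferon response element, TTCNNNGAA, the gamma-activated site, and TGACNNNGC, the core of the antioxidant response element. The windows are chr6:32844650-32844929 for PSMB8, chr14:23035191-23035470 for PSMB5, chr16:67936821-67937100 for PSMB10, chr14:24146581-24146860 for PSME2 and chr17:67366548-67366827 for PSMD12, all on the minus strand, and chr14:24135944-24136223 on the plus strand for PSME1.
PSMB8: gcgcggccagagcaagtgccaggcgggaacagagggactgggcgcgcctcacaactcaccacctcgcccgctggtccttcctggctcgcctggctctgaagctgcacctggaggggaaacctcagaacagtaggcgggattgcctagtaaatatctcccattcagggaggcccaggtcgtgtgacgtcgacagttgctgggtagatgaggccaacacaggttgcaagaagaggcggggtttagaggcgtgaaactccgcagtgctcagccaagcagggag
PSMB5: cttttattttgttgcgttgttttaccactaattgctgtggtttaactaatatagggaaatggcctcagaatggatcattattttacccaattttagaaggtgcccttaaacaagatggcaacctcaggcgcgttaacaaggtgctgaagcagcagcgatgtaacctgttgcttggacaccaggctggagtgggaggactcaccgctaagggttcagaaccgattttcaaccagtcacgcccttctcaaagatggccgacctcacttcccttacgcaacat
PSMB10: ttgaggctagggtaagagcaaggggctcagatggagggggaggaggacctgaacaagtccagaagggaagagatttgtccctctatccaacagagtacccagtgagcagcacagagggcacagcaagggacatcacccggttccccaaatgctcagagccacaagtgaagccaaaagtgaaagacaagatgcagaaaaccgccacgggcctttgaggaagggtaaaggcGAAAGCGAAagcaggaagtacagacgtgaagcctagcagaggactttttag
PSME1: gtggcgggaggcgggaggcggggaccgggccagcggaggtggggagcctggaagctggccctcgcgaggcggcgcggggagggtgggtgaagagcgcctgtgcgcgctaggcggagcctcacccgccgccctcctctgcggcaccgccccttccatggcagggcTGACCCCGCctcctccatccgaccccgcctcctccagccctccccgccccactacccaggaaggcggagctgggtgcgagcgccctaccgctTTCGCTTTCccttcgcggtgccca
PSME2: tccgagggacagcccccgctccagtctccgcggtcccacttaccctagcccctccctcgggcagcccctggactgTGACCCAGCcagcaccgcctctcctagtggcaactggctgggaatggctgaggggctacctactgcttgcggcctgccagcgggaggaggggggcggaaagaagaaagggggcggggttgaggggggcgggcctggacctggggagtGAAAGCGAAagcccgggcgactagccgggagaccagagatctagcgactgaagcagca
PSMD12: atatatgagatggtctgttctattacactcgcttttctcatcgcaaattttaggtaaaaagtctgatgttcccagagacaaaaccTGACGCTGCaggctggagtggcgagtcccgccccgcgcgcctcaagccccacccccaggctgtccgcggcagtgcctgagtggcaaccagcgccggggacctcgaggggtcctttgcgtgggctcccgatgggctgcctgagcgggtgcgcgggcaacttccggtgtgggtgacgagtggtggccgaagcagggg

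An interferon response core stood close to the start of PSMB10, PSME1 and PSME2. Its first base was at position -21 in PSMB10, 7 in PSME1, where it is on the opposite strand, and -28 in PSME2. PSMB8 and PSMB5 held none of the 3 motifs in this window. Promoters of 39 members were searched over their full 300 bases, and those of PSMA7, PSMB1, PSMB6, PSMB7, PSMD4 and PSMG3 were not analysed here. GAAANNGAA was found in 7 of the 39, which were PSMA4, PSMB4, PSMB10, PSMC2, PSME1, PSME2 and PSMG4, in 8.29% of all 27305 promoters, and in 6.19% of the 8507 promoters of genes whose mean reached 10 in all 4 tables. TTCNNNGAA was found in 4 of 39, in 7.88% of all and 6.23% of those expressed. TGACNNNGC was found in 12 of 39, in 13.6% of all and 15.2% of those expressed. CCAAT was found in 17 of 39, in 35.7% of all and 36.8% of those expressed. TATAA was found in 4 of 39, in 21.1% of all and 10.1% of those expressed. These are matches of letters, which do not show that a factor binds.

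Of the 6 ATPase genes of the base, 1 had both HCT116 means above the RPE1 means, which was PSMC4, and 1 had both below, which was PSMC6, where 39.6% of all genes lay above and 40% below. With tables divided by their sums 5 lay above and 1 below, beside 6754 and 3091 of all 11939 genes. With the means as deposited 3 lay above and 1 below, beside 5842 and 3217 of all genes. The means of PSMC1, PSMC2, PSMC3 and PSMC5 overlapped. PSMC6 had means of 1139, 1112, 1715 and 1502 and a log2 ratio of -0.51, with pairings from -0.62 to -0.40. PSMC3 had the highest level per kilobase of exon union among the ATPases, with means of 3261, 2839, 3275 and 3132. PSMC1 shares 76.1% of its exonic bases with NRDE2 on the opposite strand, and with no strand setting given for the counting, reads of the overlap cannot be told apart. The same holds for 15.3% of PSMC5 with FTSJ3. In the core particle, PSMA1, PSMA2 and PSMA6 share 26.7%, 17.2% and 14.1% of their exonic bases with other coding genes. PSMD2 was lower in HCT116, with a log2 ratio of -0.47, PSMD4, a ubiquitin receptor, was higher, with 0.25, and PSMD1, the other large scaffold of the base, had overlapping means of 4761, 4305, 4390 and 4338.

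The cell types did not overlap in any of the 8 lid genes, as in 79.6% of all genes, with HCT116 above in 5 and below in 3. With tables divided by their sums HCT116 lay above in 7 and below in 0, beside 6754 and 3091 of all 11939 genes. With the means as deposited it lay above in 5 and below in 0, beside 5842 and 3217 of all genes. PSMD12, at chr17:65334032-65362721 on the minus strand (GRCh37), was the 1 cap gene past 1.5-fold in all pairings. Its means were 2318 in HCT116 5/4, 2863 in HCT116* 8/3 c7, 1310 in RPE1 5/3 12/3 and 1245 in RPE1* 21/3, so that both HCT116 means lay well above both RPE1 means. The log2 ratio was 1.01, with pairings from 0.82 to 1.20. PSMD11, another structural lid subunit, had means of 1998, 2469, 1467 and 1519 and a log2 ratio of 0.57, and was not counted because its lowest pairing was 0.40. PSMD14, the deubiquitinating enzyme of the lid, had 2781, 2613, 2172 and 2128 and a log2 ratio of 0.33, and PSMD3 and PSMD13 had 0.35 and 0.23. PSMD6, PSMD7 and PSMD8 were lower in HCT116, with log2 ratios of -0.34, -0.14 and -0.14. Such small differences turn on the scale. The number of members with both HCT116 means below was 10 of 44, which were PSMB10, PSMC6, PSMD2, PSMD6, PSMD7, PSMD8, PSMD9, PSMD10, PSME4 and PSMG4. It was 3 when tables were divided by their sums, which were PSMC6, PSMD2 and PSMD9, and 2 with the means as deposited, which were PSMC6 and PSMD2. Of all 11939 genes, 4772 lay below on the main scale, 3091 by sums and 3217 as deposited.

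Of the 7 assembly chaperones, 2 were counted as higher in HCT116 and 0 as lower, beside 17.3% and 18.9% of all genes. PSMD5, a chaperone of the base, lies at chr9:123577774-123605229 on the minus strand (GRCh37) and had means of 1243, 1439, 781 and 771, with a log2 ratio of 0.79. PSMG3, a chaperone of the core particle, lies at chr7:1606968-1610641 on the minus strand and had means of 528, 568, 298 and 316, with a log2 ratio of 0.84. In both the HCT116 means were far apart from the RPE1 means and the means within a cell type were close. The other chaperones of the base went the other way, PSMD9 with means of 792, 706, 1320 and 1027 and a log2 ratio of -0.64, and PSMD10, known also as gankyrin, with 1026, 943, 1236 and 1262 and a log2 ratio of -0.34. PSMD9 lies on chromosome 12, which RPE1 5/3 12/3 gained, and its pairings ran from -0.90 to -0.37. Its log2 ratio was -0.30 with tables divided by their sums, and with the means as deposited its cell types overlapped. Of the other chaperones of the core particle, PSMG1 had means of 802, 906, 612 and 815 and PSMG2, its partner, had 838, 789, 852 and 792, both with overlap. PSMG4, the partner of PSMG3, had 139, 187, 191 and 203, and some of its exonic bases overlap coding genes on the opposite strand.

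Tables of the same cell type differed little in the proteasome genes. Between HCT116 5/4 and HCT116* 8/3 c7, 0 of 44 members passed 1.5-fold, where 13.9% of all genes did, and the median size of the log2 ratio was 0.13 beside 0.21 over all genes. Between the RPE1 tables, 1 of 45 passed, where 9.79% of all genes did, and the median size was 0.097 beside 0.17. Among genes whose mean reached 1000 the shares of all genes were 6.02% and 4.06%, and 0 of 38 and 0 of 37 members at that level passed. The gene past the fold between the RPE1 tables was PSMB10, with a log2 ratio of 0.66. Its ratio between the HCT116 tables was -0.25.

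In 13 of 14 core genes and 6 of 6 ATPases the mean was higher in RPE1 5/3 12/3, where 46.1% of all genes were, with median log2 ratios of 0.16 and 0.11. The core genes ranged from -0.05 in PSMB5 to 0.32 in PSMA3, and the 8 lid genes had a median of 0.01. The core median stood 0.18 above the median of all genes. With the means as deposited 14 of 14 core genes were higher, where 10715 of all 12923 genes were and their median was 0.27. In HCT116 5/4 the mean of 8 of 14 core genes was higher than in HCT116* 8/3 c7, as it was for 47.7% of all genes, with a core median of 0.02. With the means as deposited it was higher for 4 of 14 and the core median was -0.03. On that scale 5557 of all 13570 genes were higher, with a median of -0.07. The core median stood 0.04 above the median of all genes on either scale.

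**Figure D4:**
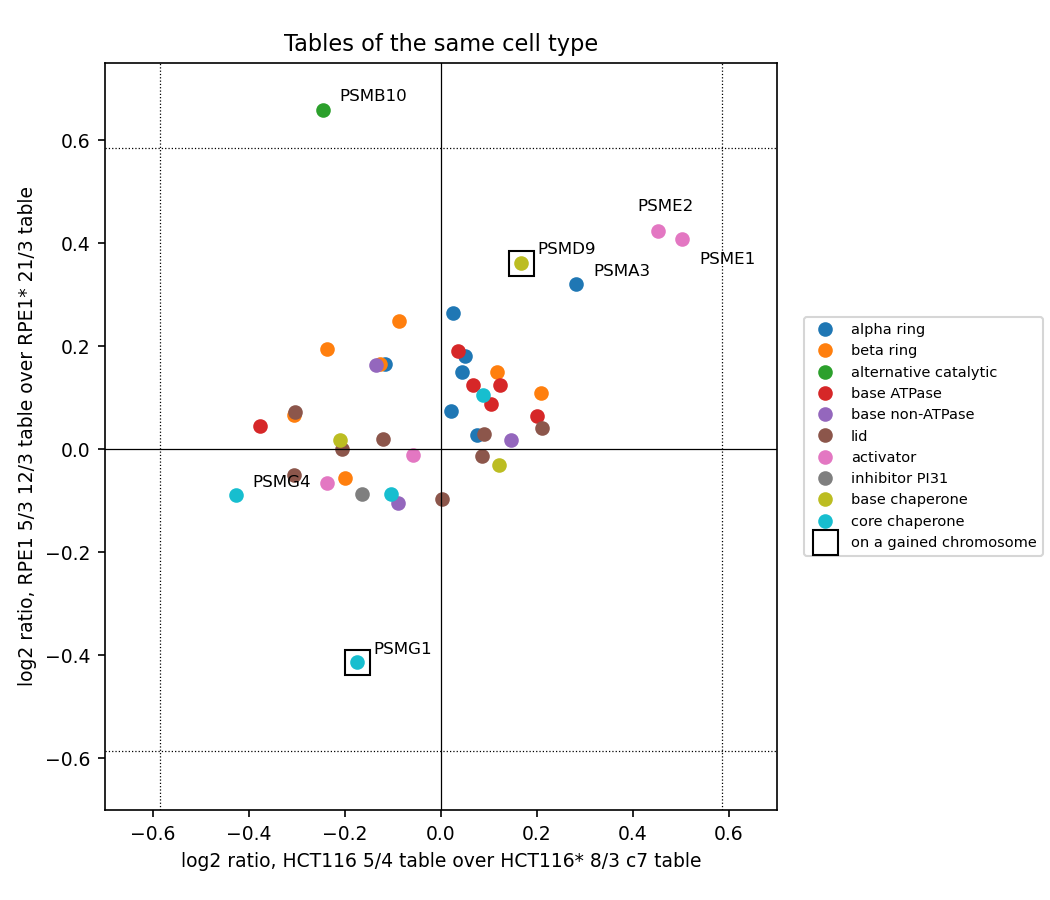
Log2 ratio between the 2 HCT116 tables (horizontal axis) and between the 2 RPE1 tables (vertical axis) for 44 proteasome genes coloured by role, with squares around the genes on a gained chromosome and dotted lines at 1.5-fold. PSMB10 alone lies past a dotted line, PSME1 and PSME2 lie together at the upper right, and PSMD9 and PSMG1 lie on opposite sides of the horizontal axis line.

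Few proteasome genes lie on the gained chromosomes, with 0 on chromosomes 5 and 8, 1 on chromosome 12 and 1 on chromosome 21. PSMD9, at chr12:122326638-122356203 on the plus strand (GRCh37), had a mean of 1320 in RPE1 5/3 12/3, which gained chromosome 12, and 1027 in RPE1* 21/3. This log2 ratio of 0.36 stands beside a median of 0.27 over 604 genes of chromosome 12, with quartiles of 0.11 and 0.39. Of the exonic bases of PSMD9, 14.9% are shared with other coding genes. PSMG1, at chr21:40546695-40555414 on the minus strand, had 612 in RPE1 5/3 12/3 and 815 in RPE1* 21/3, which gained chromosome 21. Its log2 ratio of -0.41 stands beside a median of -0.42 over 101 genes of chromosome 21, with quartiles of -0.55 and -0.24. Over 10003 genes of the chromosomes gained in neither line the median was -0.04. Both genes thus had the higher mean in the table whose line gained their chromosome. Since each mean covers aneuploid and parental libraries, a difference between the parental lines and the gain cannot be told apart. With the means as deposited the ratio of PSMG1 was -0.12 and that of PSMD9 was 0.66, each shifted with the median of all genes, which was then 0.27.

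Of 22 other proteasome genes and regulators, whose symbols do not follow the PSM pattern, 1 was counted as higher in HCT116 and 6 as lower, beside 17.3% and 18.9% of all genes. The higher gene was UBQLN4, a shuttle factor, with a log2 ratio of 0.80. The lower genes were USP14, a deubiquitinase on the cap, with -0.72, KIAA0368 and PAAF1, which bind the proteasome or its base, with -0.75 each, VCP, the segregase that unfolds ubiquitinated proteins, with -0.83, and ZFAND2A and ZFAND5, with -0.82 and -0.94. When the tables were divided by their sums, and with the means as deposited, 3 of the 22 were higher and 0 lower, beside 29.0% and 12.2% of all genes by sum and 23.0% and 12.8% as deposited. NFE2L1, the transcription factor that drives proteasome genes when the proteasome is impaired, had means of 6014, 5438, 8321 and 9762, and POMP, the maturation factor of the core particle, had 1880, 1745, 1915 and 1771. ADRM1 and SHFM1 had log2 ratios of 0.64 and -0.14, and neither was counted as different. The core, cap and assembly groups above hold only genes with PSM symbols, so they are not complete. Other complexes of many subunits were set beside the proteasome in the same way. Against 17.3% of all genes higher and 18.9% lower, 1 of 8 genes of the chaperonin CCT was counted as higher in HCT116. All 8 had both HCT116 means above, where 39.6% of all genes did, with a median log2 ratio of 0.50. In the COP9 signalosome, a relative of the lid, 1 of 9 was lower, with a median of -0.33, and in the initiation factor eIF3 1 of 12 was higher, with a median of 0.29. When tables were divided by their sums, and with the means as deposited, 4 and 3 of the CCT genes were counted as higher. In eIF3 3 and 2 were, beside 29.0% and 23.0% of all genes. The COP9 signalosome then had 0 counted as lower, with medians of 0.01 and -0.07, beside 12.2% and 12.8% of all genes.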

How the data were processed

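Total RNA of 24 libraries in 8 groups was sequenced. The authors removed adapters with cutadapt, mapped reads to hg19 with TopHat2 2.0.10, counted them over RefSeq exons with featureCounts 1.4.3 with no strand option stated, and normalized them with DESeq2. The deposited signal used here is the mean normalized count per gene over the aneuploid and parental libraries of a table. The other deposited columns hold the authors' own comparison of each line with its parent (fold change, error, statistic and p-values) and were not used here, so that comparison was not made. Depth per library is unknown.

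Means were brought to one scale by the median ratio over genes whose mean reached 10 in all 4 tables. Exon lengths came from GENCODE on GRCh37, which placed 85.5% of the 16742 genes by symbol. A fold of 1.5 was counted. The genes named were the highest and lowest per length of each family, those on gained chromosomes, those counted and the alternative subunits with their counterparts, and others were chosen after their values were seen. The members and lists were chosen with earlier results of these data known. The counting was tested on simulated data. Python 3.11.15, numpy 2.4.6 and pandas 2.3.3 were used. Other scales, folds, minimum means, lengths and pairs of tables were tried. One gene is not reported here.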

Additional observations from a re-analysis of the deposited data

How the results depend on the processing

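No library was analysed on its own, so leaving out replicates, a count model and other size factors were not run, and lengths from another annotation were not run either. No paired analysis was possible because each table gives 1 mean over all its libraries. The count of members higher in HCT116 was 3, beside 17.3% of all genes, and became 8 when tables were divided by their sums, beside 29.0%. It became 0 at 2-fold, 5 at the laxer fold tried and 5 with the tables of H2B-GFP lines only. With a mean of at least 1000, a setting chosen after seeing the data, it was 1, beside 5.53% of all genes. The count of members lower in HCT116 was 0 and became 3 at the laxer fold tried, 3 with the tables of lines without H2B-GFP only and 1, which is PSMB8, with no filter on low values. Members past the fold between the HCT116 tables were 0 and became 4 at the laxer fold tried and 1 with no filter. Between the RPE1 tables they were 1 of 45 and became 5 with the means as deposited, all higher in RPE1 5/3 12/3. Of all genes, 12.4% then passed as higher there and 2.51% as lower. They became 5 at the laxer fold tried, 0 at 2-fold and 0 with a mean of at least 1000, beside 4.06% of all genes at that mean. The counts at other folds, with no filter and by H2B-GFP are set beside no share of all genes, so they describe the members only. The log2 ratio of PSME1 between cell types, -0.17, turned to 0.17 with tables divided by their sums and to 0.087 with the means as deposited.

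The median percentile per kilobase of the core particle, 93.3 on average over the tables, was 94.8 with the longest transcript, 87.7 with no length and 95.7 with the canonical transcript, which was also chosen after seeing the data. That of the cap, 89.3, was 92.0, 87.8 and 92.3, and 87.0 with a mean of at least 100. That of the assembly genes, 67.8, stayed between 60.1 and 70.8. Other settings left the counts within 1.5 times.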
